A study of Homo sapiens with 7 samples.

Results

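Histone lysine methylation enzyme genes were taken from the RNA-seq table of T47D/A1-2 cells by gene symbol, as the KDM, SETD, SETDB, SUV, EHMT, EZH, NSD and PRDM families. The rule found 57 of the 26175 entries of the table. Of these, 55 are protein-coding and 2 are non-coding RNAs named after a neighbouring enzyme gene, EHMT1-IT1 and KDM4A-AS1. The MLL family, also named in the rule, gave 0 entries because the table lists it under the symbols KMT2A to KMT2E, and these genes are therefore given apart as partners. The 55 coding genes were divided by role into 21 SET-domain genes outside the PRDM family (writers), 19 demethylases (erasers) and 15 PRDM genes.

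T-47D is an established line of luminal breast cancer. The labels name the cells T-47D, and the study describes them as the A1-2 derivative, a stable line that overexpresses rat glucocorticoid receptor and carries an integrated MMTV luciferase reporter. All samples share 1 growth condition, medium with 10% serum followed by medium with 5% stripped serum for at least 24 hours, so no treated or control group exists to compare. The labels list 3 RNA-seq replicates, 2 Start-seq replicates, 1 MNase-seq and 1 FAIRE-seq sample. Steady-state transcript levels are given as FPKM, fragments scaled to transcript length and library size, with 1 value per gene over the merged RNA-seq replicates. Transcription start sites (TSSs) were called by the authors from Start-seq, which sequences the 5′ ends of short capped RNA, and come from replicate 1. No value therefore has an error between replicates, depth is unknown, and every comparison below is a description without a test.

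Luminal identity was visible in the same table. All 9 luminal markers had FPKM of at least 1, from 44.1 for ESR1, the estrogen receptor, to 1142 for KRT8, a luminal keratin. The basal keratins KRT5 and KRT14 were listed at 0, TP63 had an FPKM of 0.517, and the mesenchymal markers VIM, CDH2 and ZEB1 were all under 1. Of the leukocyte markers, CD3E was listed at 0 and PTPRC had an FPKM of 0.0208.

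Methylation of histone lysines marks promoters, gene bodies and silent chromatin. SET-domain enzymes transfer the methyl group to a particular lysine, for example H3K4 at promoters, H3K36 in transcribed gene bodies, and H3K9, H3K27 and H4K20 in repressed or compacted chromatin. The group is removed by LSD-type amine oxidases or by JmjC-domain oxygenases, named KDM after the lysine demethylase activity. PRDM proteins carry a domain related to SET next to zinc fingers, and many act as transcription factors in development, a few with methyltransferase activity of their own.

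Short windows from 4 loci are printed first, because they hold the starts that the rest of the text describes. SETD3 and KDM2A had the highest FPKM among writers and erasers with antisense starts on both sides of the gene TSS. PRDM4 had the highest FPKM among PRDM genes with an antisense start, and EZH2, the catalytic subunit of the H3K27 methyltransferase PRC2, was added after its values were seen. Each line holds the 50 bases before a called start and 10 bases from it, read 5′ to 3′ in the direction of that start from the GRCh37 (hg19) chromosomes, and the capitals mark the bases at -1 and +1. A gene TSS is the start of the gene. An upstream antisense TSS (uaTSS) and a downstream antisense TSS (daTSS) lie on the other strand, up to 1000 nts before and up to 2000 nts after it.
SETD3 gene TSS, chr14:99947218-99947277, minus strand: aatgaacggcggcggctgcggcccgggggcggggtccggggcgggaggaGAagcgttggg
SETD3 uaTSS, chr14:99947304-99947363, plus strand: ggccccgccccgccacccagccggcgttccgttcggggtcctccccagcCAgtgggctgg
SETD3 daTSS, chr14:99946255-99946314, plus strand: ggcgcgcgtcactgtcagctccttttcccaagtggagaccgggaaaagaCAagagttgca
KDM2A first gene TSS, chr11:66886684-66886743, plus strand: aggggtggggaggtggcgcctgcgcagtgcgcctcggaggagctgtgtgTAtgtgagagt
KDM2A first uaTSS, chr11:66886154-66886213, minus strand: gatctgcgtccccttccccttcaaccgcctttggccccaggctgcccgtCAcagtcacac
KDM2A first daTSS, chr11:66887771-66887830, minus strand: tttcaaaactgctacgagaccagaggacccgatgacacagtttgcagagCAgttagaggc
KDM2A second gene TSS, chr11:67007434-67007493, plus strand: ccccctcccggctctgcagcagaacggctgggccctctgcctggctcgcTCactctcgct
KDM2A second uaTSS, chr11:67007285-67007344, minus strand: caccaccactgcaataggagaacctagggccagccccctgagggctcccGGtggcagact
KDM2A second daTSS, chr11:67007946-67008005, minus strand: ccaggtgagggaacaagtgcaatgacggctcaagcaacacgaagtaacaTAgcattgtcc
PRDM4 gene TSS, chr12:108154934-108154993, minus strand: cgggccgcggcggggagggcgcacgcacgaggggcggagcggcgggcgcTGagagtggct
PRDM4 uaTSS, chr12:108155036-108155095, plus strand: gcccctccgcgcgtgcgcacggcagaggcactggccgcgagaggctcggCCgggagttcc
EZH2 gene TSS, chr7:148581370-148581429, minus strand: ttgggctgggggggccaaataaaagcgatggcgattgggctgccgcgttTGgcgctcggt
EZH2 uaTSS, chr7:148581592-148581651, plus strand: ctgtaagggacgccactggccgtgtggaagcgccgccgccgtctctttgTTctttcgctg
EZH2 daTSS, chr7:148580729-148580788, plus strand: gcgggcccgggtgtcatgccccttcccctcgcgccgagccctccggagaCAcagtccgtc

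In these windows, the daTSSs of SETD3 and EZH2 and the first daTSS of KDM2A start at CA, the common core of an initiator. The second daTSS of KDM2A starts at TA, also a pyrimidine followed by a purine. GC content of the same windows was 78.3% at the SETD3 gene TSS and 56.7% at its daTSS, and 66.7% and 50% at the first KDM2A gene TSS and daTSS. At EZH2 the order was opposite, with 63.3% at the gene TSS and 75% at the daTSS.

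Steady-state levels were moderate for most of the enzymes and low for most PRDM genes. An FPKM of at least 1 was listed for 43 of the 57 entries, against 46.9% of all genes of the table and 60.5% of its 18829 protein-coding genes. The median FPKM was 10.4 over the 57 entries, 10.6 over the 55 coding genes and 4.18 over all protein-coding genes. On the log2(FPKM + 0.1) scale, the median of members minus that of all genes of the table was 4.06, and it turned to -0.16 among genes with an FPKM of at least 1 and to -0.33 among genes with a called gene TSS. All 21 writers had an FPKM of at least 1, with a median of 14.9 and quartiles of 10.6 and 22.2. The erasers had a median of 11.2, with 16 of 19 at or above 1, and the PRDM genes had a median of 0.205, with 6 of 15 at or above 1. Of the 55 coding members, 29 reached an FPKM of 10, against 38.1% of protein-coding genes. Only 2 entries, KDM2A and SETD3, exceeded an FPKM of 50. In a bulk library, expression in fewer cells and less RNA per cell cannot be told apart.

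**Figure D1:**
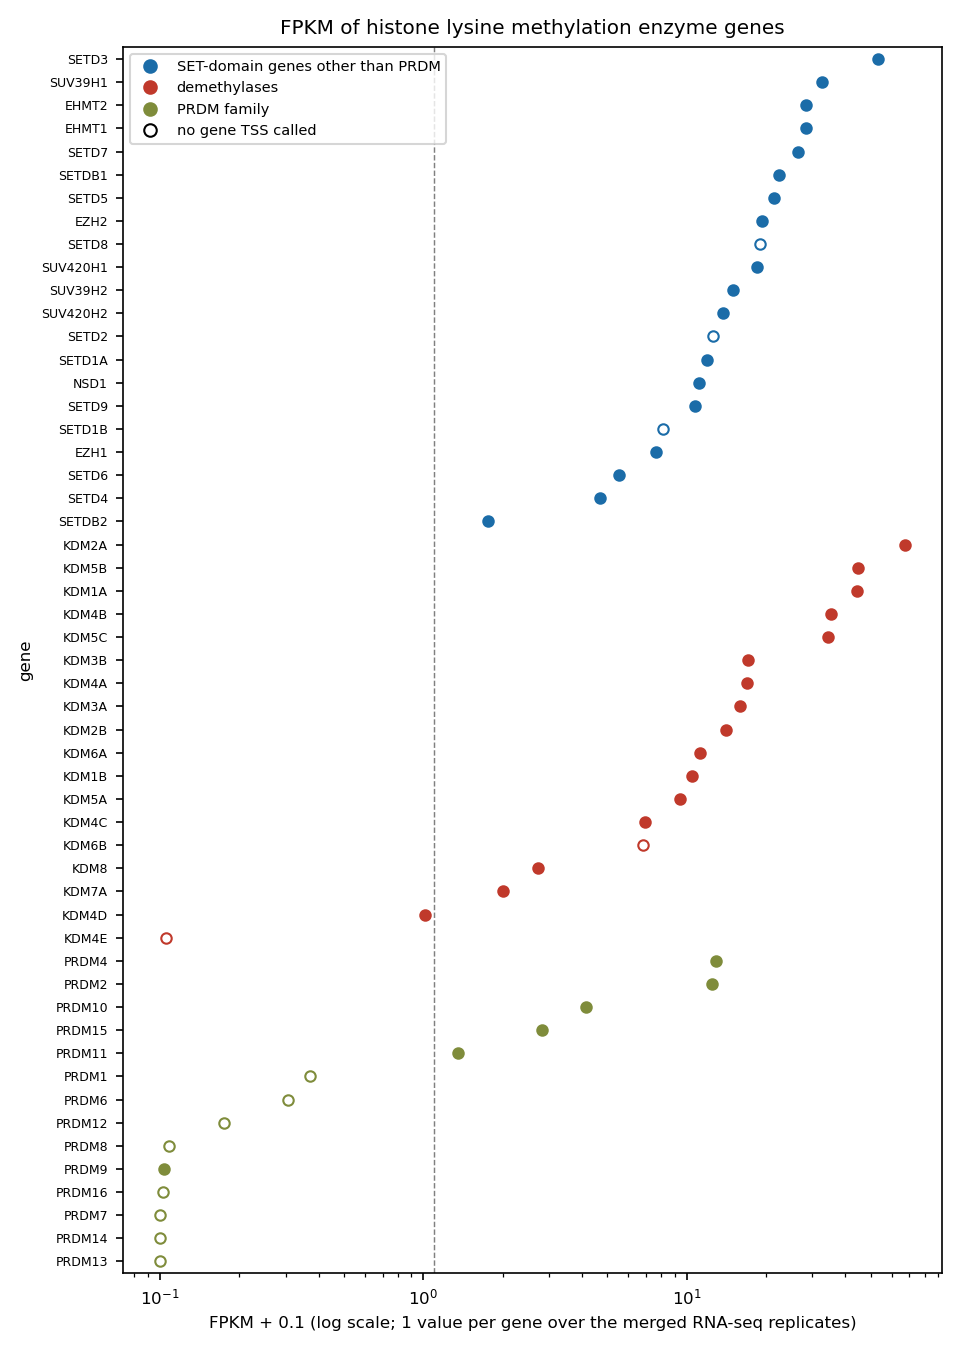
FPKM plus 0.1 on a log axis for 53 of the 55 coding genes, 1 point per gene, colored by role and open where no gene TSS was called; the dashed line marks an FPKM of 1. SETD3 at 53.3 and KDM2A at 67.1 lead their groups, whereas 9 PRDM genes lie left of the line.

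Among the writers of H3K9 methylation, the mark of heterochromatin and silenced genes, 5 of 6 had an FPKM of at least 10. That level was reached by 16 of all 21 writers and by 38.1% of all protein-coding genes. SUV39H1, which methylates pericentric heterochromatin, had an FPKM of 32.4, which is 2.18 times that of its paralog SUV39H2 at 14.9. EHMT1 and EHMT2, the subunits of the G9a-GLP complex of euchromatic H3K9 methylation, had nearly equal values of 28.1 and 28.4. The EHMT2 value is uncertain, because the table places the gene on an alternative haplotype of chromosome 6, where reads can map to several copies. SETDB1, which acts with TRIM28 at repeats, had an FPKM of 22.2, 13.4 times the 1.66 of SETDB2, the lowest value of any writer.

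For H3K27, EZH2 had an FPKM of 19.2 and its paralog EZH1 one of 7.52, a ratio of 2.55. The H3K36 writers within the name rule had values of 12.4 for SETD2, which trimethylates H3K36 in transcribed genes, and 11.1 for NSD1, which dimethylates it, whereas WHSC1 and WHSC1L1, relatives of NSD1 outside the rule, had 39.9 and 41.6. The H4K20 writers SETD8, SUV420H1 and SUV420H2, of which SETD8 adds the first methyl group and the others add more, had values of 18.8, 18.4 and 13.6. Without replicate error, differences of this size within a family cannot be judged.

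The H3K4 group had values of 26.3 for SETD7, a monomethyltransferase that also modifies other proteins, 11.8 for SETD1A and 8.05 for SETD1B, the catalytic subunits of the SET1 complexes. Of the remaining SET-domain genes, SETD3, known as an actin histidine methyltransferase, had the highest FPKM of all writers at 53.3. SETD5 followed with 21.4 and SETD9 with 10.6. SETD6, which methylates a subunit of NF-kappaB, had an FPKM of 5.41, and SETD4 one of 4.60.

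Among erasers, paralogs often lay several-fold apart. KDM2A, an H3K36 demethylase with a CpG-binding zinc finger, had the highest FPKM of all members at 67.1, 4.79 times the 14.0 of KDM2B. KDM1A (LSD1), the amine oxidase that acts on H3K4 in the CoREST complex, had an FPKM of 44.4, 4.28 times the 10.4 of KDM1B. In the KDM5 family, which removes H3K4 methylation, KDM5B was at 44.5, KDM5C at 34.3 and KDM5A at 9.33. KDM5B thus had 4.77 times the FPKM of KDM5A.

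KDM4 enzymes remove methyl groups from H3K9 and H3K36, and their order was KDM4B at 35.1, KDM4A at 16.9, KDM4C at 6.84, KDM4D at 0.910 and KDM4E at 0.00583. The H3K9 demethylases KDM3B and KDM3A differed little, with 16.9 and 15.8. Levels of the H3K27 demethylases were 11.2 for KDM6A, which also belongs to the MLL3 and MLL4 complexes, and 6.74 for KDM6B. KDM8 and KDM7A had the lowest values among erasers at or above 1, with 2.62 and 1.90.

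Only 6 PRDM genes reached an FPKM of 1. PRDM4 had 12.8 and PRDM2, an H3K9 methyltransferase also called RIZ, had 12.3. PRDM10 had 4.06, PRDM15 had 2.72 and PRDM11 had 1.25. PRDM1, the regulator of plasma cell differentiation also called Blimp-1, had an FPKM of 0.271. PRDM9, which places H3K4 and H3K36 methylation at meiotic recombination sites, had an FPKM of 0.00359, and its near-identical paralog PRDM7 was listed at 0, although reads cannot be divided between such copies with certainty. PRDM13 and PRDM14 were also listed at 0. Over all members, 4 of 57 were listed at 0, against 30.1% of all genes and 17% of protein-coding genes. The 8 coding members above 0 and under 1 ranged from 0.00297 for PRDM16 to 0.910 for KDM4D. The non-coding entries KDM4A-AS1 and EHMT1-IT1 had values of 0.467 and 0.0706.

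**Figure D2:**
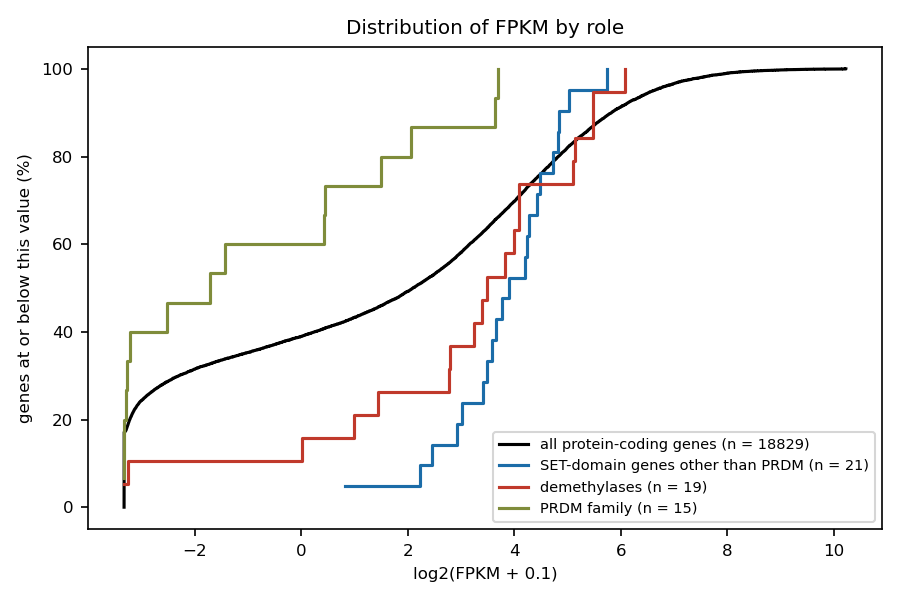
Percent of genes at or below a given log2(FPKM + 0.1), for writers (n = 21), erasers (n = 19), PRDM genes (n = 15) and all 18829 protein-coding genes. Medians are 3.90 for writers, 3.49 for erasers, -1.71 for PRDM genes and 2.10 for all coding genes.

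Every gene of the partner lists taken had an FPKM of at least 1, a level reached by 60.5% of all protein-coding genes. All 9 PRC2 partners had an FPKM of at least 1 (median 19.0), from 7.09 for AEBP2 to 233 for RBBP7, a histone-binding subunit shared with other complexes. The core subunits EED and SUZ12 had values of 27.4 and 30.2. The 10 COMPASS partners, shared by the H3K4 methyltransferase complexes, had a median of 26.1, from 8.75 for PAXIP1 to 62.2 for DPY30. Of the 4 LSD1 partners, HDAC1 was highest at 140 and PHF21A lowest at 8.87. In the H3K9 list, the HP1 genes CBX1, CBX3 and CBX5 had values of 88.6, 138 and 82.0, TRIM28 had 134 and ATF7IP was lowest at 11.3.

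The 5 MLL-family genes had lower values than the median writer, from 5.54 for KMT2C to 13.6 for KMT2D, with a median of 8.36. Of 14 further enzymes outside the name rule, 13 had an FPKM of at least 1, against 60.5% of all protein-coding genes. Their median was 13.0, and the highest were SMYD2 with 49.7, WHSC1L1 with 41.6 and WHSC1 with 39.9. The muscle gene SMYD1 was listed at 0. WHSC1, an H3K36 dimethyltransferase also called NSD2, had 3.61 times the FPKM of NSD1.

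Gene TSSs were called at 40 of the 55 coding genes, against 52.2% of all protein-coding genes. Among coding members with an FPKM of at least 1 the share was 38 of 43 (88.4%), and for all protein-coding genes above the same level it was 81.0%. By role, 18 of 21 writers, 16 of 19 erasers and 6 of 15 PRDM genes had a call. Members with a gene TSS had a median FPKM of 13.2 (n = 40), and all protein-coding genes with one had 16.6 (n = 9822). The non-coding entries could receive none, since the authors searched around mRNA starts. A call was counted for a gene when it lay on its strand and within 1000 nts of an annotated transcript start.

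Most calls lay close to annotated starts, among members and over all genes, a closeness that the method favours. The authors searched around RefSeq mRNA starts and took the candidate site closer to the annotated start. The assignment used here also required an annotated start within 1000 nts. Of the 43 gene TSSs of members, 13 coincided with an annotated transcript start, against 21.8% of all gene TSSs given to a gene. Within 50 nts of a start lay 35 of the 43, against 75% of all, with a median distance of 4 nts against 10 nts over all gene TSSs. SETD3 was called at position 99947227 on the minus strand of chromosome 14, EHMT2 at 31865476 on the minus strand of chromosome 6, and KDM1A at 23346163 on the plus strand of chromosome 1, 202 nts downstream of the nearest annotated start. KDM5B was called exactly at its annotated start, position 202777549 on the minus strand of chromosome 1. The most distant call was that of PRDM10 at 129873622 on the minus strand of chromosome 11, at -892 nts from the nearest annotated start, where a minus sign means upstream. SETD7 followed, with a call at 140478466 on the minus strand of chromosome 4 at -543 nts.

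More than 1 gene TSS was called at 3 of the 40 genes, and at 4.41% of protein-coding genes with a call. At KDM2A the calls lay at 66886734 and 67007484 on the plus strand of chromosome 11, 120750 nts apart. PRDM2 was called at 14026689 and 14075932 on the plus strand of chromosome 1, 49243 nts apart. The SUV39H1 calls, at 48554115 and 48555602 on the plus strand of the X chromosome, were separated by 1487 nts. Each gene has a single FPKM, so the share of each start in its level is not given by the table.

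Genes without a called gene TSS at an FPKM of at least 1 included SETD8 at 18.8, SETD2 at 12.4, SETD1B at 8.05 and KDM6B at 6.74. No gene TSS of any gene was called within 1000 nts of the locus of these 4 genes. Of the 12 coding members under an FPKM of 1, 2 had a gene TSS, against 8.09% of all protein-coding genes under that level. KDM4D was called at 94706824 on the plus strand of chromosome 11, 119 nts from the divergent gene TSS of CWC15, whose FPKM was 56.1. PRDM9 was called at 23507708 on the plus strand of chromosome 5, 10 nts upstream of its annotated start, with a uaTSS at 293 nts and no other called gene TSS within 5000 nts.

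Upstream antisense initiation was called at 29 of the 43 gene TSSs (67.4%, exact Clopper-Pearson 95% interval 51.5% to 80.9%), and at 53.1% of all gene TSSs. The interval covers the counting of calls in 1 library only and contains the share over all gene TSSs. By role, uaTSSs were called at 14 of 19 gene TSSs of writers, 9 of 17 of erasers and 6 of 7 of PRDM genes. Neither a uaTSS nor a daTSS was called at 10 of the 43, against 35.9% of all gene TSSs. Of these, KDM1B, KDM4D, KDM5A, EHMT1 and EHMT2 had a called gene TSS of the other strand within 1000 nts upstream. The first SUV39H1 call, at 48554115, had the uaTSS of the second call downstream of it, at 48554984. At these genes, the lack of both labels is therefore not a lack of antisense initiation.

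**Figure D3:**
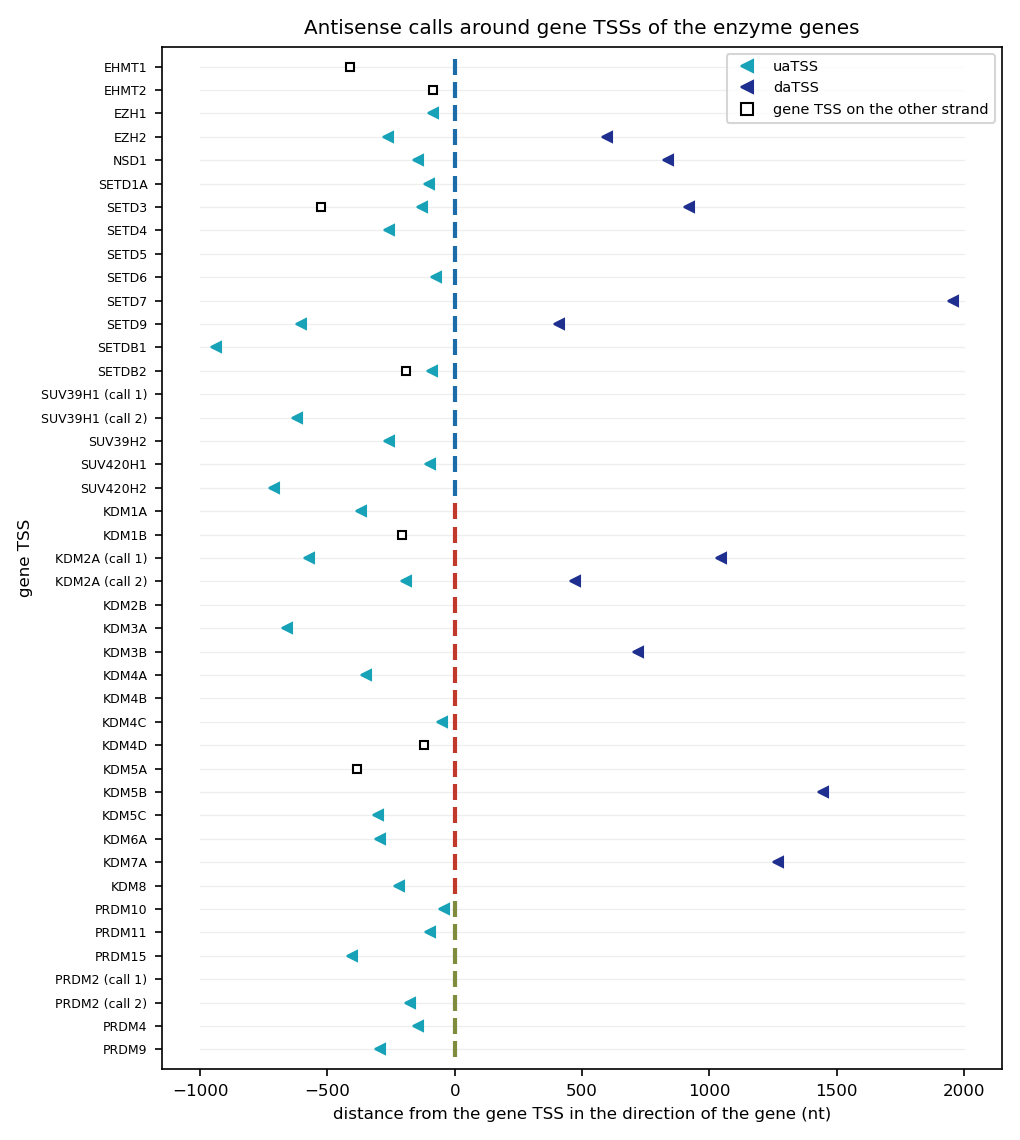
Position of each uaTSS and daTSS relative to its gene TSS, in nts along the direction of the gene, for the 43 gene TSSs of members; ticks at 0 are gene TSSs colored as in the FPKM plot, and open squares are gene TSSs of the other strand up to 1000 nts upstream. The nearest daTSS, that of SETD9, lies at 411 nts, and no PRDM gene TSS has one.

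The distance from gene TSS to uaTSS had a median of 257 nts over members (quartiles 101 and 367), and of 200 nts over all uaTSSs. The closest was that of PRDM10 at 42 nts, followed by KDM4C at 49 nts and SETD6 at 73 nts. These 3 were the member uaTSSs within 80 nts, a distance found for 10.4% of all uaTSSs. The farthest was that of SETDB1, called at 150898790 on the plus strand of chromosome 1, with its uaTSS 938 nts upstream. SUV420H2 at 711 nts and KDM3A at 661 nts came next. KDM1A had its uaTSS at 367 nts, the second call of SUV39H1 at 618 nts, and the internal call of PRDM2 at 176 nts, whereas the first calls of SUV39H1 and PRDM2 had none.

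Some members share their promoter region with a divergent gene. A gene TSS of the other strand lay within 1000 nts upstream of 7 of the 43, against 11.5% of all gene TSSs. The partners were TPMT for KDM1B (206 nts), CWC15 for KDM4D (119 nts), CCDC77 for KDM5A (385 nts), C2 for EHMT2 (87 nts), CCNK for SETD3 (527 nts), CAB39L for SETDB2 (191 nts) and, for EHMT1, a call 413 nts upstream assigned to no coding gene of the table. A uaTSS was called at 2 of these 7, SETD3 and SETDB2, and at 27 of the other 36. Over all gene TSSs, the shares were 16.2% with such a partner and 57.9% without. Whether the divergent start has a part in the missing uaTSS calls was not tested.

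Levels within these pairs were similar in some and not in others. SETD3 and CCNK had FPKM values of 53.3 and 52.4, and KDM5A and CCDC77 had 9.33 and 10.7. TPMT had 17.6 and KDM1B 10.4. KDM4D at 0.910 lay far below CWC15 at 56.1. Large gaps were also found for SETDB2 at 1.66 beside CAB39L at 36.7, and for EHMT2 at 28.4 beside C2, a complement component gene, at 0.479.

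Downstream antisense initiation was called at 10 of the 43 gene TSSs (23.3%, exact 95% interval 11.8% to 38.6%), and at 28.4% of all gene TSSs. With daTSSs within 1000 nts only, the shares were 14.0% and 24.1%. All 10 daTSSs, at any distance, belonged to 9 genes, the writers SETD3, SETD7, SETD9, EZH2 and NSD1 and the erasers KDM2A, KDM3B, KDM5B and KDM7A. None of the 7 PRDM gene TSSs had a daTSS, for which the exact interval extends to 41.0%. Both a uaTSS and a daTSS were called at 6 gene TSSs, namely those of SETD3, SETD9, EZH2 and NSD1 and both of KDM2A, against 17.5% of all gene TSSs. Of the 9 genes with a daTSS, 8 had an FPKM of at least 10, against 67.7% of all protein-coding genes with a daTSS, and KDM7A at 1.90 was the exception. Of the 40 members with a gene TSS, 27 reached that level, against 64% of all protein-coding genes with a gene TSS. Median FPKM was 19.2 over the 5 genes with both kinds of antisense call at a gene TSS, 11.8 over the 23 with a uaTSS only, 21.6 over the 4 with a daTSS only and 17.7 over the 10 with neither, where PRDM2 and SUV39H1 count under more than 1 heading.

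The daTSSs of members lay at a median of 880.5 nts from the gene TSS, and those of all gene TSSs at 507 nts. The nearest was that of SETD9, called at 56205885 on the plus strand of chromosome 5, at 411 nts, followed by the second call of KDM2A at 471 nts and EZH2 at 600 nts. KDM3B had its daTSS at 718 nts, NSD1 at 839 nts and SETD3 at 922 nts. The remaining 4, beyond 1000 nts, were those of the first KDM2A call at 1046 nts, KDM7A at 1271 nts, KDM5B at 1448 nts and SETD7 at 1959 nts. Of all daTSSs, 15.2% lay beyond 1000 nts. Members therefore lay at longer distances in 8 of 10 cases than the median of all daTSSs, a count over 10 calls without a test.

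All 10 daTSSs of members lay in an intron, outside every exon of the gene, against 60.1% of all daTSSs given to a gene. In the transcript that starts closest it was intron 1 each time, a share not computed over all daTSSs. The first exon of the transcript that starts closest ended before the daTSS in each case. For SETD9, the exon ended 336 nts from the gene TSS and the daTSS lay 75 nts beyond it. At NSD1, with a first exon that ended at 34 nts, the daTSS lay 805 nts into the intron, and at KDM5B it lay 1129 nts into it. At EZH2, the daTSS was at 148580779 on the plus strand of chromosome 7, 477 nts into intron 1.

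Sequence at the starts resembled that of other promoters. Around the gene TSS, over 100 nts, GC content averaged 69.2% ± 8.90 (SD over 43 gene TSSs) for members and 67.2% ± 9.02 over all gene TSSs. It ranged from 49% at KDM2B to 92% at EHMT1. The initiator-like pair, with C or T at -1 and A or G at +1, was present at 30 of the 43 gene TSSs, against 66.1% of all. CA itself was found at 12 of the 43, against 30.3%. The initiator-like pair was found at 21 of 29 uaTSSs, against 64.7% of all uaTSSs, and at 9 of 10 daTSSs, against 66.9% of all daTSSs. CA was the start of 6 of 10 daTSSs, against 39.6% of all daTSSs, and of 6 of 29 uaTSSs, against 29.9% of all uaTSSs.

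Promoter motifs were searched in the 250 nts upstream of each gene TSS on both strands, as GGGCGG (GC box), CCAAT, CCGGAAGT (an ETS core) and the palindromic NRF1 core. GGGCGG was found at 30 of the 43 gene TSSs of members, against 70.1% of all gene TSSs. CCAAT was found at 21, a share of 48.8% (exact 95% interval 33.3% to 64.5%) against 33.4%, an interval whose lower bound lies just below the share over all. CCGGAAGT was found at 2, SETD4 and SETD6, against 7.55%, and the NRF1 core at 0, against 2.15%. TATAA or TATAT starting 35 to 24 nts upstream, on the gene strand, was found at 1, KDM4B, against 3%. A match is a run of letters in the window and not a measured binding site.

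At the partner genes, calls varied likewise. Over all gene TSSs, 53.1% had a uaTSS and 28.4% a daTSS. The 10 gene TSSs of PRC2 partners carried 8 uaTSSs and 1 daTSS, at RBBP7. The 11 of COMPASS partners carried 6 uaTSSs and 4 daTSSs, and the 3 of LSD1 partners carried 3 and 2. The 5 of the H3K9 list carried 3 uaTSSs and 2 daTSSs, and the 13 of the further enzymes outside the name rule 6 and 6. For the MLL family, gene TSSs were called at KMT2A, KMT2C and KMT2E and not at KMT2B and KMT2D. None of these 3 gene TSSs had a uaTSS or a daTSS, and 35.9% of all gene TSSs had neither.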

How the data were processed

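The authors filtered and trimmed RNA-seq reads, aligned them with TopHat 2.0.4, removed duplicates, merged the replicates and estimated the deposited FPKM values with Cufflinks 2.2.1. Start-seq reads were aligned by the authors to hg19 with Bowtie 0.12.8, and TSSs were called around RefSeq mRNA starts. The other deposited columns hold the position of each TSS call, with no read counts. The second Start-seq library and the nucleosome and FAIRE libraries were not analysed here.

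Symbols were matched to protein-coding genes of GENCODE 44 lifted to GRCh37, which shares its chromosome sequences with hg19, for 18829 entries; 3 members carry another symbol there. Each gene TSS went to the table gene with the closest annotated transcript start on its strand, at most 1000 nts away (10285 of 10391). Antisense calls were joined by identifier. Medians on the log2 scale used a pseudocount of 0.1. Python 3.11.15, numpy 2.4.6, scipy 1.17.1, pandas 2.3.3, pysam 0.24.0 and matplotlib 3.10.9 were used. Assignment, distances and sequence windows were tested on simulated data.

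Members, roles and lists were chosen with earlier results of these data known. Members with an FPKM of at least 1 are named, except that some values are not reported here. Positions are given for the 3 highest members of each role, members with calls but low FPKM or the reverse, those with several calls, and the closest and farthest antisense calls. KDM7A was placed with the erasers and the MLL genes under their later symbols after the table was read. The paralog ratios, the divergent partners and the motifs were also chosen then.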

Additional observations from a re-analysis of the deposited data

How the results depend on the processing

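Of 29 alternative settings for 10 results, 27 left a count within 1.5 times its value, or a value within its interval. Some of these settings could hardly fail. For mean GC content the interval was 1 SD on either side, 60.3% to 78.1%. Leaving out the PRDM genes removed too few members to change a count 1.5-fold. Within that interval, the share of gene TSSs with a daTSS fell from 23.3% to 14.0% when daTSSs beyond 1000 nts were left out. The exception among the 10 results was the median log2(FPKM + 0.1) of members minus that of all genes. It was 4.06 in the main comparison and turned negative in both settings that remove low genes. It was -0.16 with genes of FPKM of at least 1 only and -0.33 with genes that have a called gene TSS only, because the whole table holds many genes at or near 0. Members thus lay above the median entry of the table and slightly below the median of either smaller set. With any call on either strand within 1000 nts of the listed locus, 41 entries had a gene TSS; EHMT2, listed on a haplotype, dropped out, and both non-coding entries entered through a shared locus. No paired analysis was possible because the RNA-seq replicates are merged and TSS calls come from 1 library. For the same reason no replicate could be left out, and no depth could be given.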
